A study of Mus musculus with 3 samples.

Results

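Feedback genes of fibroblast growth factor (FGF) signalling through the kinase ERK were followed gene by gene in mouse Achilles tendon and dorsal root ganglia. The 10 genes were Spry1, Spry2, Spry4, Spred1, Spred2, Dusp4, Dusp6, Etv4, Etv5 and Ccnd1. They were chosen by name, and all 10 were found once by symbol among the 33696 features of each tendon library and the 35980 features of the ganglion library.

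FGF and other growth factors bind receptor tyrosine kinases and switch on RAS, RAF, MEK and finally the kinase ERK. ERK activity induces its own brakes: Sprouty (Spry) and Spred proteins act on the cascade upstream of ERK, and the dual-specificity phosphatases Dusp4 and Dusp6 remove the activating phosphates from ERK itself. Etv4 and Etv5 are ETS-family transcription factors induced by FGF signalling in many tissues, and Ccnd1 encodes cyclin D1, which partners the kinases CDK4 and CDK6 to drive cells out of G1. In tendon, FGF and ERK signalling act in the development of the tendon and of its attachment to bone, and in sensory neurons ERK lies downstream of the neurotrophin receptors.

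The study used C57BL/6 mice and 3 droplet libraries, 1 a group. The neurectomy library came from the Achilles tendons of 5 mice. Their sural nerve, which carries sensation from the calf and foot, was cut 1 week before 4 weeks of immobilisation in dorsiflexion, a posture that stretches the tendon. The sham library came from 5 mice with the nerve exposed only and the same 4 weeks of immobilisation, so both tendon groups shared it and no tendon without immobilisation was analysed here. The ganglion library (DRG) pooled 18 ganglia of 6 mice, injected at 4 weeks of age with 5 µL of a tdTomato vector into the tendon sheath and sampled 4 weeks later. The labels differ on whether that vector was an AAV or a lentivirus, and on whether the ganglia of both sides were taken.

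The neurectomy, sham and DRG libraries held 25067, 32951 and 23566 barcodes with medians of 1212, 1065 and 3422 transcripts (unique molecular identifiers, UMIs). Filters kept 21992, 25306 and 22384 of them. Barcodes were placed in cell classes by marker genes that include no member, which gave 11 tendon classes, 11 DRG classes and 7 neuron subtypes. Barcodes that fitted no class numbered 11770 in the neurectomy and 12762 in the sham library. One gate was led by Acan, Ibsp, Hapln1 and Spp1 but carried tenocyte markers at 45.6% (neurectomy) and 72.4% (sham) of the tenocyte level, against its intended chondrocyte name, and is called the Acan- and Ibsp-led class. The other tendon classes carried tenocyte markers at 4.91% to 45.9% of that level. The neurectomy and sham libraries shared 1001 barcode sequences (3.99% and 3.04% of their barcodes).

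With 1 pooled library a group there was no spread between animals to test against, so no p-value is given. Levels are counts per 1000000 UMIs of the class (CPM), and every interval is a 95% interval that covers counting error only. Gene lengths and capture differ, so levels are compared between classes for 1 gene and not between genes.

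In the ganglia, blood endothelial cells were the highest class for Spry1, Spred2 and Dusp6, and satellite glia for Dusp4 and Ccnd1, while the other 5 genes each had another class on top. Among barcodes with 5000 or more UMIs the highest class was another one for Spry2 and Etv4 (satellite glia), Spry4 (blood endothelial cells) and Ccnd1 (non-myelinating Schwann cells). Spry1 was a gene of the vessel wall: its level was 240.1 CPM (229.2 to 251.4) in blood endothelial cells, 79.2 CPM in mural cells and 38.1 CPM in fibroblasts. It was 3.02 CPM in satellite glia and 0.757 CPM in neurons, whose median depth of 47460 UMIs was the deepest of all classes. Spry2 was instead highest in non-myelinating Schwann cells, at 401.2 CPM (378.9 to 424.6). Mural cells had 385.2 CPM (361.1 to 410.5) and satellite glia 354.6 CPM (346.7 to 362.6). Neighbours in this order overlapped in their intervals. Fibroblasts followed at 231.1 CPM (220.3 to 242.4) and T or NK cells at 190.8 CPM (148.5 to 241.5). Myelinating Schwann cells, the class of the same lineage that wraps large axons, had 70.7 CPM (66.6 to 75.0). Spry4 was highest in mural cells, at 136.8 CPM (122.6 to 152.2), followed by endothelial cells at 95.1 CPM (88.3 to 102.3), and was 2.0 CPM in myelinating Schwann cells.

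The Spred genes, whose proteins hold RAF inactive through the RAS regulator neurofibromin, were spread more widely. Spred1 was highest in macrophages at 318.5 CPM (294.4 to 343.9) and fibroblasts at 260.2 CPM (248.7 to 272.2), and it was 67.5 CPM in neurons. Spred2 reached 120.0 CPM (112.4 to 128.1) in endothelial cells and 103.8 CPM (102.3 to 105.4) in neurons, against 25.4 CPM (22.9 to 28.0) in myelinating Schwann cells. Neurons were therefore near the top of the order for Spred2 and in its lower part for Spred1.

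The 2 phosphatases had different highest classes. Dusp4, whose protein is nuclear, was highest in satellite glia at 26.9 CPM (24.8 to 29.2), overlapping B cells at 15.6 CPM (1.89 to 56.4). It was 1.05 CPM in neurons. Dusp6, whose protein is cytoplasmic, was highest in endothelial cells at 141.9 CPM (133.6 to 150.6), with neutrophils at 106.4 CPM (85.9 to 130.3), and was 10.6 CPM in neurons.

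The related factors Etv4 and Etv5 had different highest classes. Etv4 was found in fibroblasts at 19.4 CPM (16.4 to 22.9) and satellite glia at 19.1 CPM (17.3 to 21.0), and was 0.475 CPM in neurons. Etv5 was highest in neurons, at 60.2 CPM (59.0 to 61.4), above endothelial cells at 37.7 CPM (33.4 to 42.3) and satellite glia at 30.1 CPM (27.8 to 32.5). Neurons were thus the highest class for 1 of the 10 genes, Etv5.

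Ccnd1 differed between the glial classes. Its level was 209.9 CPM (203.9 to 216.1) in satellite glia and 152.1 CPM (138.5 to 166.7) in non-myelinating Schwann cells, against 2.58 CPM (1.84 to 3.52) in myelinating Schwann cells. The non-myelinating gate also carried satellite glia markers at 5692 CPM, against 7547 CPM of its own. Satellite glia carried non-myelinating markers at 4248 CPM, and myelinating Schwann cells at 407.9 CPM. The part of this overlap in the Ccnd1 and Spry2 levels was not tested. Neurons, which do not divide, had 3.11 CPM (2.84 to 3.39). The receptor Fgfr1 had 246.1 CPM in satellite glia, 150.8 CPM in non-myelinating Schwann cells and 47.5 CPM in myelinating Schwann cells. It was named after its values were seen, its other classes are not given, and a link to Ccnd1 was not tested.

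**Figure D1:**
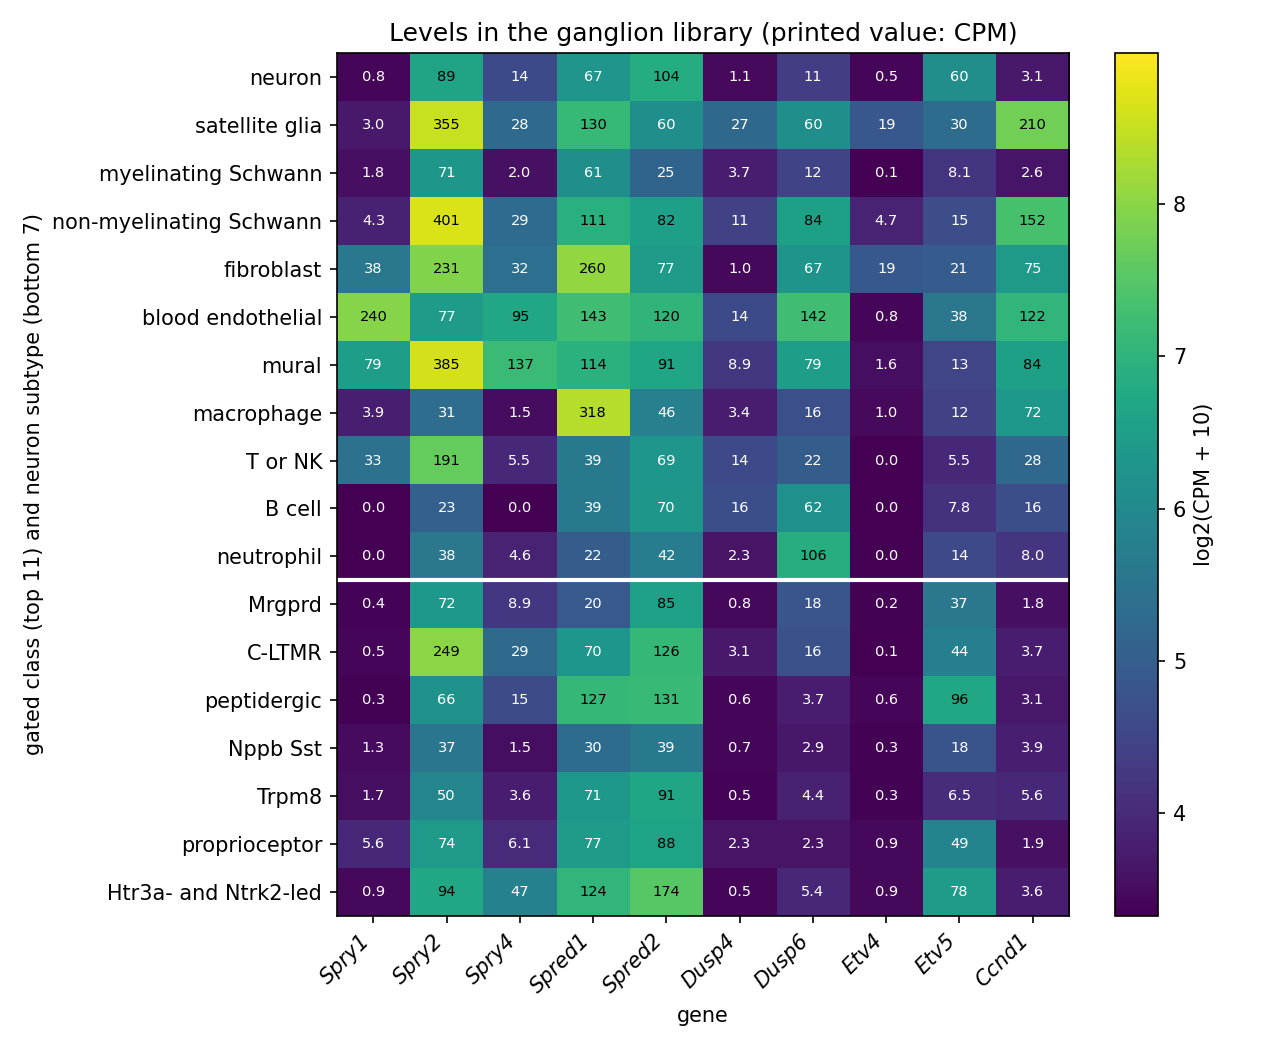
Level of each member in the ganglion library, in CPM, by gated class (upper 11 lines) and neuron subtype (lower 7); colour is log2(CPM + 10) and the printed number is CPM. Spry1 stands out in blood endothelial cells (240.1 CPM) and Etv5 in neurons (60.2 CPM), where peptidergic ones had the highest subtype level (96.3 CPM).

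Sensory neuron subtypes differed in their levels of these genes. Peptidergic neurons, pain-sensing cells marked by Calca and Tac1, had the highest Etv5, 96.3 CPM (93.1 to 99.7), and Trpm8 neurons, which sense cold, had 6.46 CPM (4.67 to 8.70). C-LTMRs, the unmyelinated touch neurons marked by Th, had 248.6 CPM (241.1 to 256.2) of Spry2, and the next subtype had 93.8 CPM (85.9 to 102.2). That next subtype, gated for large-fibre touch neurons but led by Htr3a, Chrna3 and Ntrk2, had the highest Spry4, 46.5 CPM (41.0 to 52.6), and the highest Spred2, 173.8 CPM (163.0 to 185.2). Mrgprd neurons, non-peptidergic pain-sensing cells, had 20.0 CPM (18.8 to 21.3) of Spred1, the lowest of the 7 subtypes, against 127.1 CPM (123.3 to 130.9) in peptidergic neurons. For Dusp6 that pair was the other way round, with 18.3 CPM (17.1 to 19.5) in Mrgprd and 3.68 CPM (3.07 to 4.38) in peptidergic neurons.

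Neurons reached from the tendon sheath could be marked by the injected vector. Vector UMIs were found in 359 of 3460 neurons, 10.4% (exact Clopper-Pearson interval 9.38% to 11.4%), and in 0.415% of satellite glia, which send no axon to the tendon. The median depths of these classes were 47460 and 5469 UMIs. Vector UMIs were not confined to neurons: they were found in 2.52% of fibroblasts (1.84% to 3.35%), at 31.3 CPM against 76.8 CPM in neurons. Of the 10 members, 3 had an interval above 0 for neurons with vector against those without, and 0 had one below. The 3 were Etv5, Spred2 (117.3 against 102.0 CPM, log2 0.20) and Spred1 (72.6 against 66.8 CPM, log2 0.12). The share of all genes with such an interval was not computed, so these counts are not read as a result about the members. Etv5 was 74.7 CPM in neurons with vector and 58.2 CPM in those without, a log2 difference of 0.36 (0.28 to 0.44). Within peptidergic neurons the levels were 96.7 and 96.3 CPM, a log2 difference of 0.01 (-0.16 to 0.17). In Mrgprd neurons they were 44.5 and 36.4 CPM, a log2 difference of 0.29 (0.09 to 0.49). The interval therefore held 0 in the subtype with the most Etv5 and lay above 0 in Mrgprd neurons, and the mix of subtypes among vector-marked neurons was not tested as a source of the pooled difference. Of the 70 pairs of a member and a subtype, those with 0 UMIs on either side had no interval. Among the others, 5 intervals lay above 0 and 1 below, again without a share over all genes. Those above 0 included Etv4 in the subtype led by Htr3a, Chrna3 and Ntrk2, on 3 UMIs with vector. Dusp6 in neurons gated by Nppb and Sst was another, on 6 UMIs with vector. The one below was Spry4 in C-LTMRs, 14.8 against 29.8 CPM (log2 -1.01, -1.83 to -0.29), on 16 UMIs with vector.

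In the sham tendon the vessel wall, macrophages and stromal fibroblasts held most of the highest levels. Spry1 was highest in stromal fibroblasts at 133.9 CPM (125.8 to 142.5), with mural cells at 88.2 CPM (75.5 to 102.3). Spry4 and Dusp4 were both highest in mural cells, at 56.9 CPM (46.8 to 68.5) and 26.1 CPM (19.5 to 34.4). For Dusp4 the interval overlapped that of mast cells at 12.9 CPM (5.89 to 24.4). Spred1 was highest in macrophages at 370.8 CPM (357.9 to 384.0), the class that was highest for it in the ganglia too. Dusp6 did not separate macrophages at 67.0 CPM (61.6 to 72.8) from blood endothelial cells at 65.6 CPM (56.7 to 75.4). Spry2 was within overlapping intervals in mast cells at 81.6 CPM, stromal fibroblasts at 80.2 CPM and Schwann cells at 73.8 CPM. Spred2 was highest in blood endothelial cells at 140.1 CPM (127.0 to 154.2), overlapping mast cells at 124.5 CPM (99.7 to 153.5). Etv5 was 31.3 CPM (27.6 to 35.3) in macrophages and 27.5 CPM (16.6 to 42.9) in Schwann cells, which overlapped. Ccnd1 was highest in the Acan- and Ibsp-led class at 230.2 CPM (216.1 to 245.0), overlapping lymphatic endothelial cells at 219.2 CPM (207.5 to 231.5). Etv4 was low in every class, at most 15.9 CPM in Schwann cells on 11 UMIs.

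Tenocytes, the resident tendon cells, were the highest class for none of the 10 genes. Their sham levels were 43.5 CPM of Spry1, 46.0 CPM of Spry2, 12.2 CPM of Spry4, 15.1 CPM of Dusp6 and 0.697 CPM of Dusp4. They held 95.2 CPM of Spred1, the lowest of the 11 classes, and 93.9 CPM of Spred2.

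The comparison of neurectomy with sham asked what loss of the sural nerve changed in immobilised tendon. A gene was called where the levels differed at least 1.5-fold, among genes with 50 or more UMIs over both libraries and 10 CPM in the higher one. The shares of all genes called lower ranged over the classes from 2.14% in tenocytes to 19.7% in mast cells, with 2.47% in lymphatic and 2.48% in blood endothelial cells, 2.88% in macrophages, 5.76% in synovial lining cells and 9.86% in Schwann cells. The shares called higher ranged from 2.0% in tenocytes to 19.9% in mast cells. Of the 110 pairs of a member and a class, 79 entered, 16 were higher in neurectomy, 3 were lower and 60 were within 1.5-fold. Ccnd1 gave 7 of the 16, and without it 9 of 68 pairs were higher and 3 lower. Of those 9, 4 entered only through the neurectomy library, being under 10 CPM in sham (Etv4 in 2 classes, Spry4 in lymphatic and Etv5 in blood endothelial cells), so the balance of higher and lower calls is not read as a result. With no filter, 23 pairs were higher and 13 lower, and the shares of all genes called without a filter are not given.

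Ccnd1 was higher in the neurectomy library in all 11 classes and at least 1.5-fold higher in 7 of them. In tenocytes it was 229.1 CPM after neurectomy and 108.0 CPM in sham, a log2 ratio of 1.08 (1.01 to 1.16). It was the only member called among the 8 that entered in tenocytes, where 2.0% of all 8393 genes were called higher and 2.14% lower. Tenocytes were also deeper after neurectomy, with a median of 7139 UMIs against 1950, and fewer, 1021 barcodes against 3597; at 5000 or more UMIs the log2 ratio was 1.11.

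The Acan- and Ibsp-led class had the widest Ccnd1 gap, 1273 CPM against 230.2 CPM, a log2 ratio of 2.47 (2.36 to 2.57). This class held 168 and 262 barcodes, and 29.8% against 10.7% of them carried UMIs of at least 2 cycling genes. Without those barcodes the log2 ratio was 2.43, though shallow barcodes of cycling cells can miss these genes and stay in. In this class 18.9% of all genes were called higher and 9.20% lower, and the median over all genes was a log2 ratio of 0.15. The members called there were Ccnd1, Etv4 and Spry2 higher and Spry1 lower, 4 of the 8 that entered.

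Other classes called for Ccnd1 were mural cells at 190.6 against 88.2 CPM (log2 1.11, 0.82 to 1.41), stromal fibroblasts at 130.5 against 73.7 CPM (log2 0.83, 0.65 to 1.00) and macrophages at 164.8 against 101.7 CPM (log2 0.70, 0.56 to 0.84). Blood endothelial cells had 315.0 against 197.0 CPM (log2 0.68, 0.53 to 0.83) and synovial lining cells 162.4 against 104.1 CPM (log2 0.64, 0.41 to 0.87). The synovial ratio turned to -0.52 at 5000 or more UMIs and to -0.61 with Xist required as well, and the mural ratio was -0.0399 under the latter. The shares of all genes called higher were 7.44% in mural cells, 5.06% in stromal fibroblasts, 5.72% in macrophages, 5.82% in blood endothelial cells and 6.92% in synovial lining cells. Pi16 fibroblasts, where 3.42% of all genes were called higher and 2.35% lower, had a log2 ratio of 0.41 (0.28 to 0.54). Lymphatic endothelial cells had 0.13 (0.01 to 0.25), and the intervals of Schwann and mast cells held 0.

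**Figure D2:**
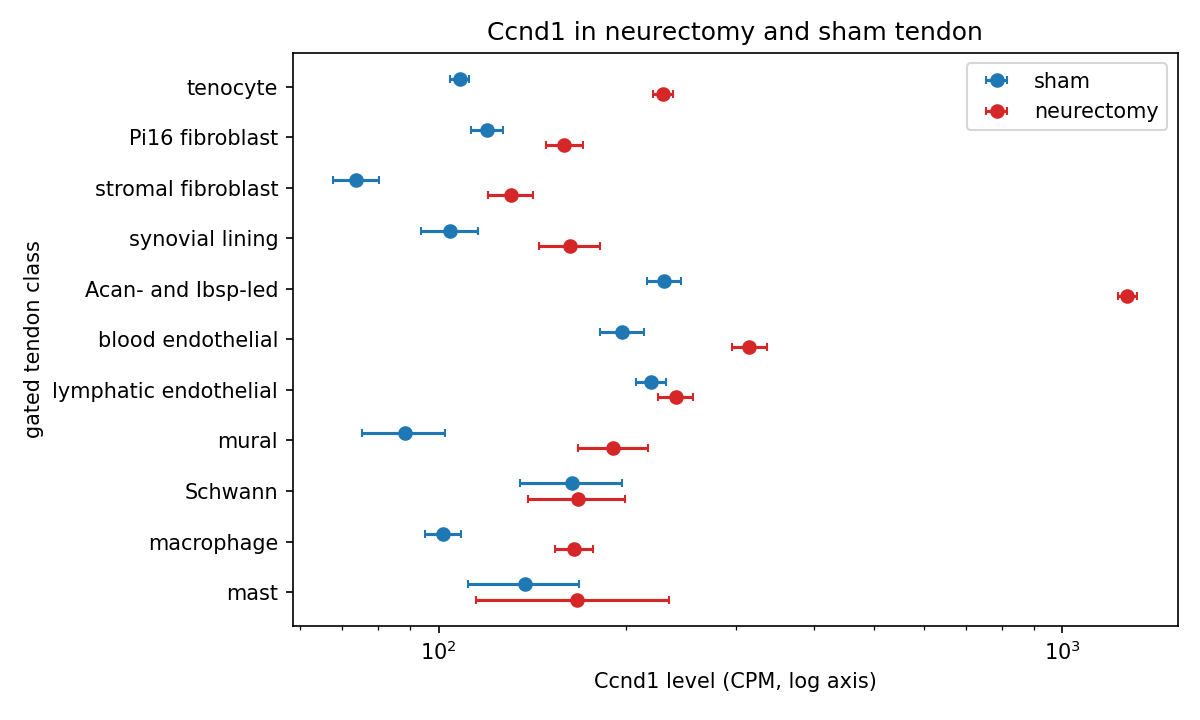
Ccnd1 level in each gated tendon class, in CPM on a log axis, for the sham (blue) and neurectomy (red) libraries; bars are exact 95% Poisson intervals, counting error only. The Acan- and Ibsp-led class stands apart after neurectomy (1273 against 230.2 CPM), while the Schwann cell intervals overlap.

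Values that moved with the groups stand beside these results. Barcodes with UMIs of at least 2 cycling genes were 5.68% of all kept barcodes after neurectomy and 2.46% in sham. Ccnd1 was higher after neurectomy both in them, 854.3 against 399.1 CPM, and in the others, 252.7 against 115.2 CPM. Leaving out cycling barcodes changed the tenocyte log2 ratio to 0.93 and kept 7 classes called. Finding 2 cycling genes depends on depth, and kept barcodes had medians of 1347.5 (neurectomy) and 1338 UMIs (sham). The barcodes left in can therefore hold cycling cells, and the part of cell division in the Ccnd1 ratios was not tested.

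The pools also differed in sex: Y-linked UMIs without Xist were found in 2027 sham barcodes (8.01%) and 11 neurectomy barcodes (0.05%). Among barcodes with Xist and no Y-linked UMI, Ccnd1 was at least 1.5-fold higher in 4 classes, and its log2 ratio was 1.25 in tenocytes, 0.39 in stromal fibroblasts and 0.39 in mural cells. With at least 5000 UMIs as well, 3 classes were called: tenocytes at 1.28, the Acan- and Ibsp-led class at 2.35 and blood endothelial cells at 1.23. Sex and depth were not otherwise separated from the operation, and their part in the remaining differences was not tested.

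Among the receptor-level brakes, Spry1 was the member called lower in 2 classes. In stromal fibroblasts it was 81.7 CPM after neurectomy and 133.9 CPM in sham (log2 -0.71, -0.89 to -0.54), where 3.28% of all genes were called lower. In Xist-positive barcodes without Y-linked UMIs that ratio was -0.33, and 23.8% of the sham stromal barcodes had Y-linked UMIs without Xist. In the Acan- and Ibsp-led class it was 18.9 against 42.4 CPM (log2 -1.17, -1.68 to -0.68), and with the deepest 5% of barcodes left out it was -0.21.

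Spry2 was higher in the Acan- and Ibsp-led class, 52.2 against 31.8 CPM (log2 0.72, 0.35 to 1.08), and in Schwann cells, 114.9 against 73.8 CPM (log2 0.64, 0.12 to 1.17), where 14.4% of all genes were called higher. Spry4 was higher in lymphatic endothelial cells, 14.1 against 8.28 CPM (log2 0.77, 0.19 to 1.35), a class with 5.95% of genes called higher. This pair entered only through the neurectomy library. At 5000 or more UMIs that ratio was 0.39.

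Spred2 stayed within 1.5-fold in all 11 classes, with log2 ratios from -0.52 to 0.35. Spred1 was called in mast cells alone, 268.1 against 157.4 CPM (log2 0.77, 0.27 to 1.25), on 53 and 110 UMIs and in a class where 19.9% of all genes were called higher. As a mean over barcodes, that ratio was 0.12. Tenocyte markers in the mast class were 25.5% of the tenocyte level after neurectomy and 45.9% in sham, and their part in the mast cell differences was not tested. In stromal fibroblasts Spred1 was 187.4 against 262.4 CPM (log2 -0.49, -0.61 to -0.37), short of the call.

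Dusp6 moved in different directions in different classes. It was 92.2 against 40.5 CPM in Schwann cells (log2 1.19, 0.53 to 1.87) and 141.6 against 44.4 CPM in mast cells (log2 1.68, 0.88 to 2.46). In Schwann cells 14.4% of all genes were called higher, and in mast cells 19.9%. In mural cells Dusp6 was 26.1 against 48.7 CPM (log2 -0.90, -1.53 to -0.31), where 6.65% of all genes were called lower. The Schwann class held 385 neurectomy and 185 sham barcodes, with 69 and 28 UMIs of Dusp6. Its tenocyte markers were 9.91% of the tenocyte level after neurectomy and 29.1% in sham, a shift in the same direction as in mast cells, and their part was not tested. Dusp4 entered in mural cells alone, at 21.2 against 26.1 CPM (log2 -0.30, -1.04 to 0.40).

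Etv4 entered in 2 classes and was higher in both. It was 24.1 against 6.03 CPM in the Acan- and Ibsp-led class (log2 2.0, 1.30 to 2.73) and 12.0 against 5.32 CPM in stromal fibroblasts (log2 1.17, 0.55 to 1.80), on 55 and 26, and 52 and 40 UMIs. A gene this low enters where it is high in 1 library, so the 2 classes give no count for Etv4 as a whole. By level, entered or not, Etv4 was higher after neurectomy in 8 of the 11 classes. In Schwann cells, which did not enter, Etv4 was 1.34 against 15.9 CPM on 1 and 11 UMIs (log2 -3.575, -9.003 to -0.79). Over all kept barcodes it was 12.5 CPM (11.7 to 13.3) after neurectomy and 6.08 CPM (5.66 to 6.52) in sham. The related factor Etv5 was 21.0 (20.0 to 22.0) and 19.6 CPM (18.8 to 20.4) over all barcodes. Etv5 passed 1.5-fold in blood endothelial cells, 12.6 against 8.32 CPM, with an interval that held 0 (log2 0.60, -0.17 to 1.40), and it too entered only through the neurectomy library.

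**Figure D3:**
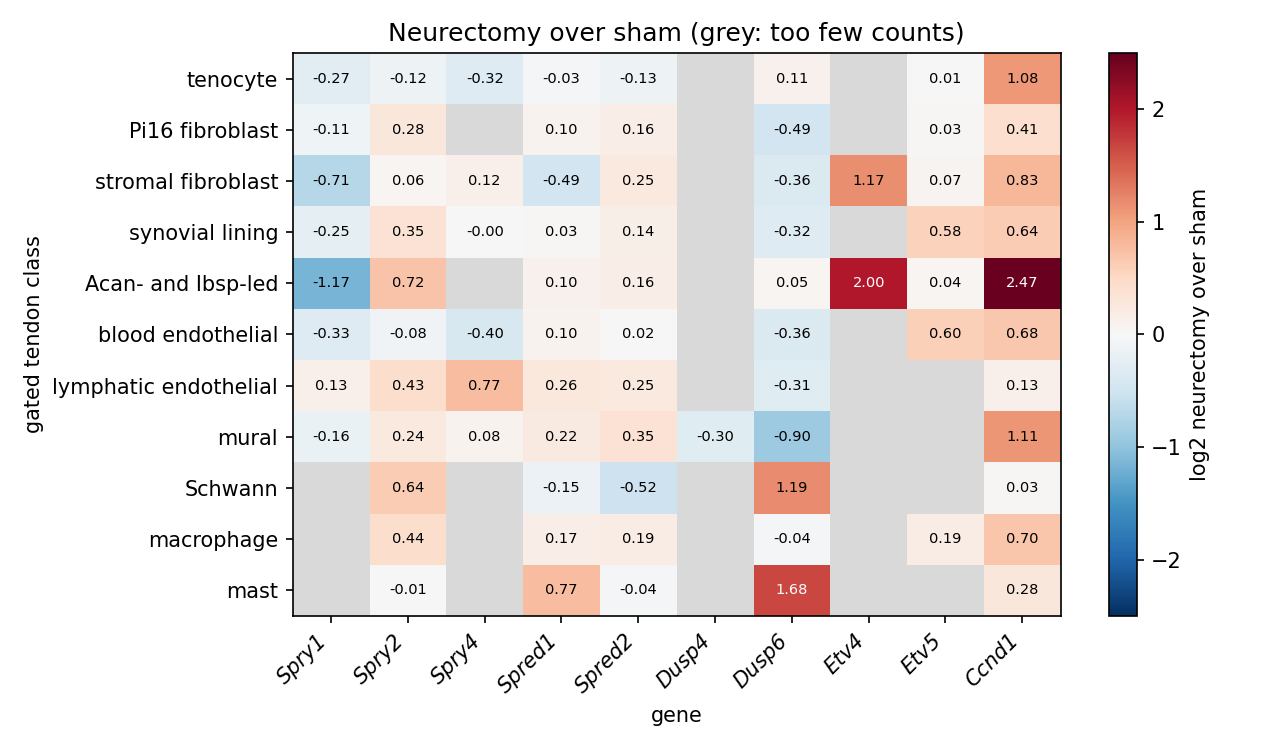
log2 ratio of neurectomy over sham for each member and gated tendon class; grey marks pairs with under 50 UMIs or under 10 CPM. Ccnd1 is above 0 in every class, Spred2 lies between -0.52 and 0.35, and Dusp6 is positive in Schwann and mast cells and negative in mural cells.

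At a stricter call of at least 2-fold, 7 pairs were higher in neurectomy and 1 was lower. Ccnd1 passed it in tenocytes, where 0.524% of all genes did so upward and 0.715% downward, in the Acan- and Ibsp-led class (6.38% and 3.58%) and in mural cells (1.67% and 1.75%). Etv4 passed it in the Acan- and Ibsp-led class, where Spry1 was the pair called lower, and in stromal fibroblasts (1.63% and 0.954%). Dusp6 passed it in Schwann cells (4.89% and 3.43%) and mast cells (9.50% and 8.41%). No member passed it in Pi16 fibroblasts (0.930% and 0.525%), synovial lining cells (1.63% and 1.55%), blood endothelial cells (1.36% and 0.509%), lymphatic endothelial cells (1.65% and 0.407%) or macrophages (1.91% and 0.638%).

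Other genes of the pathway were read in the same classes. In tenocytes, 11 of 14 other FGF and ERK response genes entered, with a median log2 ratio of 0.39 against -0.02 over all genes, 2 called higher and 0 lower. The members' own median in tenocytes was -0.07, and in blood endothelial cells 11 of the 14 entered and 0 were called. The 2 were Fosl1, an AP-1 subunit, at 31.3 against 13.2 CPM (log2 1.24, 1.04 to 1.45), and the growth regulator Myc at 58.3 against 35.1 CPM (log2 0.73, 0.60 to 0.87). None of the 17 genes of the ERK cascade itself was called in tenocytes, and their median was -0.05. All 10 immediate-early genes entered and 0 were called, with Atf3 at 142.1 against 105.1 CPM (log2 0.44, 0.35 to 0.52). The intervals of 8 lay above 0, against 19.6% of all genes at any level, and their median log2 ratio was 0.12. In mast cells 7 of the 9 that entered were called higher, where 19.9% of all genes were. In the Acan- and Ibsp-led class 5 of 10 intervals lay below 0 and 1 above, against 1294 and 2711 of all 8715 genes.

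Of 9 other G1 cyclins and partners, 6 entered in tenocytes and 0 were called. In the Acan- and Ibsp-led class, where 18.9% of all genes were called higher and 9.20% lower, 8 entered and 4 were called higher, namely Ccne2 (32.5 against 10.9 CPM), E2f1 (46.5 against 19.9 CPM), Cdk4 (87.7 against 48.0 CPM) and Cdk6 (122.8 against 61.7 CPM), the last pair being the kinases that cyclin D1 binds. Cdkn1b, an inhibitor of those complexes, was called lower there, 36.4 against 55.9 CPM. All 6 cycling genes were called higher in that class, with a median log2 ratio of 1.00. In the same class Fosl1 was called higher (98.3 against 37.8 CPM), and Atf3, an immediate-early factor, was called lower (91.2 against 151.2 CPM). Receptors showed no call in tenocytes or in the Acan- and Ibsp-led class, with 3 of 6 receptor and docking genes entered in each.

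Likeness of pattern was measured by Pearson's r of log2(CPM + 10) over 22 tendon and 17 DRG class profiles, which share libraries and depth, and is given as a description. Among the members, Spry1 and Spry4 were the most alike in tendon (r = 0.764) and Ccnd1 and Dusp6 in the ganglia (r = 0.721). Over all genes in tendon, the gene most like Ccnd1 was LTO1 (r = 0.884), its neighbour on chromosome 7 in the RefSeq annotation, before Banf1 (r = 0.882) and Ung (r = 0.846). In tendon, Spry1 was nearest to Zbtb8a (r = 0.831), Snai1 (r = 0.820) and Cald1 (r = 0.797). Spry2 was nearest to Eda (r = 0.893), Stk39 (r = 0.860) and Gm10125 (r = 0.844). Spry4 was nearest to Gucy1a2 (r = 0.874), Cald1 (r = 0.863) and Pakap (r = 0.862). Spred1 was nearest to Rassf2 (r = 0.925), Cebpa (r = 0.921) and Reps2 (r = 0.921). Spred2 was nearest to 1700086O06Rik (r = 0.779), Gm46430 (r = 0.778) and Gm56862 (r = 0.776). Dusp4 was nearest to Kcnab1 (r = 0.863), Nrip2 (r = 0.861) and Tmem132d (r = 0.851). Dusp6 was nearest to Pacc1 (r = 0.908), Tmem199 (r = 0.880) and Gm27003 (r = 0.870). Etv4 was nearest to Lipg (r = 0.788), Slc19a1 (r = 0.784) and Dtymk (r = 0.780). Etv5 was nearest to Slc35c2 (r = 0.827), Arhgap22 (r = 0.815) and Lgals3 (r = 0.812). In the ganglia, Spry1 was nearest to Slc23a3 (r = 0.965), Pkp4 (r = 0.935) and Rgs16 (r = 0.931). Spry2 was nearest to Hoxb2 (r = 0.877), Plekhh3 (r = 0.849) and Il17rc (r = 0.837). Spry4 was nearest to Hoxb3 (r = 0.865), Fat4 (r = 0.854) and Phldb2 (r = 0.852). Spred1 was nearest to Rassf8 (r = 0.828), Rxra (r = 0.818) and Tnfsf12 (r = 0.803). Spred2 was nearest to Extl3 (r = 0.837), Ccdc141 (r = 0.789) and D3Ertd254e (r = 0.774). Dusp4 was nearest to Trim69 (r = 0.897), Msi2 (r = 0.893) and Patl2 (r = 0.893). Dusp6 was nearest to Gm34921 (r = 0.881), Myd88 (r = 0.876) and Cdk2 (r = 0.856). Etv4 was nearest to Scgb1a1 (r = 0.979), Sh3rf3 (r = 0.958) and Srpx (r = 0.953). Etv5 was nearest to Nebl (r = 0.866), Baalc (r = 0.858) and Cntnap5c (r = 0.85). Ccnd1 was nearest to Ifih1 (r = 0.938), Casp4 (r = 0.935) and Cnksr3 (r = 0.930).

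Promoter letters were searched for 4 short motifs only. RefSeq promoters (GRCm38.p6) were read for 6 of the 10 members with 7 start sites: Spry1, Spry2, Spred1, Spred2, Dusp6 and Etv5. Members on chromosome 18, where Spry4 lies, were left out of this search, so the 7 windows do not cover Spry4. The share over all promoters was taken without that exclusion. Over the 250 bases before each start, on both strands, 3 motifs were searched: CCGGAA, bound by ETS factors, TGACGTCA, bound by CREB, and TGANTCA, bound by AP-1. None was in any of the 7 windows, against 12.0%, 1.55% and 6.75% of all 32851 promoters. One more motif, the shorter ETS core CGGAA, which lies inside CCGGAA, was tried only after those 3 had failed and the promoter letters had been read. It was in 3 of 7 windows (Spred1, Spred2 and Dusp6) against 25.2% of all promoters, and is given for completeness and not as a result. The absence of a motif says only that these letters are not in these windows.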

How the data were processed

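The files hold raw UMI counts for each gene in each barcode, which the authors deposited without scaling; per the file headers they come from Cell Ranger 8.0.1. The submitters' processing notes list mm10 and GRCm39 without saying which library used which, so no coordinates are given. For the annotation release, the sources used here give nothing. Tendon features pair Ensembl identifiers with symbols and DRG features give symbols only.

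A barcode was kept if it had 500 or more genes and no more than 15% of its UMIs from mitochondrial genes. Each was scored by the mean z-score, clipped at 10, of log UMIs per 10000 over each class's markers. It took the highest class with at least 2 markers detected, a mean of at least 0.5 and a lead of 0.25, and otherwise stayed ungated. Classes needed 100 barcodes in each tendon library or 50 in DRG. No doublet caller was run: the lead leaves many mixed barcodes ungated, and doublets can remain. UMIs were summed per class and scaled to CPM. Intervals at 95% are exact Poisson for levels, Clopper-Pearson for shares and, for ratios, exact binomial conditional on the summed UMIs. The ratio code was tested on simulated counts. Python 3.11.15, numpy 2.4.6, scipy 1.17.1 and pandas 2.3.3 were used.

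The members, the other gene lists and the markers were chosen with earlier results of these data known. The named genes were all 10 members, the 3 genes most like each and at most 4 genes of each list with the largest ratios. Chosen after the gates or values were seen were the check that a class has 3 markers at 2-fold and 1 among its top 10 genes, the exemption of neurons from its top-gene condition, the exclusion of erythroid gates, the RefSeq names of mitochondrial genes in DRG, the shorter promoter motif, and the alternatives that combine 5000 UMIs with Xist or thin barcodes to 2000 UMIs. Cdkn1b and, in DRG, Fgfr1 lie outside the rule and were named after their values were seen. The promoter search tried 4 motifs.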

Additional observations from a re-analysis of the deposited data

Results flagged for a closer look

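Dusp6, the cytoplasmic ERK phosphatase, differed in direction between tendon classes under the same comparison. Its log2 ratio of neurectomy over sham was 1.19 in Schwann cells and 1.68 in mast cells, and -0.90 in mural cells, and none of the 3 intervals held 0. Of all genes, 14.4% in Schwann and 19.9% in mast cells were called higher, and 6.65% in mural cells were called lower. With 1 library a group the difference between classes was not tested. The ratio kept its direction in these 3 classes under every alternative that gave a value, and the mast class held 4 neurectomy barcodes at 5000 or more UMIs, too few for a value there.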

How the results depend on the processing

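No paired analysis was possible because each group is 1 library, and for the same reason no replicate could be left out. Of 938 values of a pair under an alternative, 824 moved by less than their counting interval, 111 moved and 3 reversed. The reversals were Ccnd1 in synovial lining cells at 5000 or more UMIs (log2 -0.52) and with Xist as well (-0.61), and Ccnd1 in mural cells under the latter (-0.0399). The 16 pairs called higher became 8 at 5000 or more UMIs, 8 with 200 UMIs and 20 CPM required, and 5 at 5000 UMIs with Xist and no Y-linked UMI. The 3 called lower became 7 at 5000 UMIs and 13 with no filter. The shares of all genes called under these settings are not given, so the counts are not read as a change in the members. Classes called for Ccnd1 fell from 7 to 4 at 5000 UMIs, to 4 with Xist and no Y-linked UMI, and to 3 with both. The highest sham class was the same for 5 of 10 members as a mean over barcodes, and the highest DRG class for 6 of 10 at 5000 UMIs, where Spry2, Spry4, Etv4 and Ccnd1 had another. The causes were not tested. Low members (Dusp4, Etv4) are limited by their counts, and the mast and Schwann classes by their barcodes.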

Other observations

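Over all kept barcodes, gated or not, Ccnd1 was 322.6 CPM (318.6 to 326.6) after neurectomy and 137.6 CPM (135.6 to 139.7) in sham. In ungated barcodes alone it was 396.9 CPM (390.3 to 403.6) and 159.6 CPM (156.0 to 163.2). The ungated level was above those of the gated classes other than the Acan- and Ibsp-led class after neurectomy. In sham the ungated level lay below that of lymphatic endothelial (219.2 CPM), blood endothelial (197.0 CPM) and Schwann cells (163.5 CPM) and of the Acan- and Ibsp-led class. Spry1 over all kept barcodes was 40.8 CPM (39.4 to 42.2) after neurectomy and 52.9 CPM (51.6 to 54.2) in sham. Etv4 in ungated barcodes was 19.7 CPM (18.3 to 21.3) and 9.63 CPM (8.77 to 10.6).

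Thinned to 1000 UMIs a barcode, drawn without replacement, the share of tenocyte barcodes with a Ccnd1 UMI was 14.8% after neurectomy and 10.1% in sham. In the Acan- and Ibsp-led class the shares were 39.1% and 13.0%. In DRG neurons, which have almost no Ccnd1, the share was 0.34%.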
